A study of Macaca fascicularis with 3 samples.

Results

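The genes described here are the 124 ZNF genes that were readily measured in cynomolgus monkey germ cells grown from embryonic stem cells. They were selected by level: a symbol made of ZNF and a number, with ZNF483 set aside, had to reach 20 CPM, its count scaled to a common total, in the UMIs (unique molecular identifiers, each marking 1 captured transcript) summed over the germ cells of 3 libraries. Of 26017 annotated features, 367 carried such a symbol, 124 passed and 243 fell under the limit. Because level chose them, their levels are a description only. Fold changes between germ cell states were not part of the rule, but a pooled level can carry a gene over the limit through the state in which it is high, and the members for which this decided are named below.

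The cells descend from 15XRi-AGVT#7, a wildtype cynomolgus embryonic stem cell line with a TFAP2C-EGFP tag, which marks germ cells from their specification onward, and a DDX4-tdTomato tag, which marks them later. They had been cultured as xrOvary aggregates with mouse ovarian somatic cells, and the groups differ in the embryonic stage of those mouse cells, from E13.5 through E14.5 to E15.5. Each stage is 1 library of polyA RNA made with the 10x Genomics 3' v3.1 kit at the labelled time ag49+52. Cells positive for either tag were sorted as germ cells, and mouse cells negative for both were added to them before loading. All cells trace to 1 line, and their labelled cell type is early oogonia. No label ties repeated values to separate differentiations, so p-values measure the spread over these 3 libraries, which also differ in mouse stage. Wherever 3 values are given for a state, they stand in the order of mouse stage, youngest first.

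ZNF genes encode proteins that carry zinc fingers, small folds that hold a zinc ion and read DNA or RNA. Many of them, the KRAB zinc finger proteins, bind transposon-derived DNA or imprinted loci and recruit the corepressor TRIM28 with the histone methyltransferase SETDB1, which together lay down repressive histone H3 lysine 9 methylation. Others carry no KRAB domain and act in splicing, ribosome assembly, spindle function or developmental gene control. Fetal female germ cells lose pluripotency-associated transcription, respond to retinoic acid through STRA8 and enter meiosis, during which the synaptonemal complex, of which SYCE3 is a part, joins homologous chromosomes.

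Germ cells were barcodes with 2 to 20% of UMIs in the 13 mitochondrially encoded genes and at least 10000 UMIs, which gave 537, 536 and 1113 cells by stage, or 2186 of 7827 barcodes. They held 31364271, 24342943 and 57505722 UMIs, with medians of 55620, 43003 and 48553 per cell. No barcode was a germ cell in more than 1 library, but 267, 58 and 344 germ cell barcodes by stage also appeared in another library. The 887 barcodes outside the germ cells that are shared between libraries had a median of 976 UMIs.

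Each germ cell was placed by 3 gate genes counted per 10000 UMIs. A cell with SYCE3 at 4 or more was called SYCE3-high, of the others one with STRA8 at 0.75 or more STRA8-positive, of the rest one with POU5F1 at 6 or more POU5F1-high, and all remaining cells in-between. These are ranges of 3 continuous measures rather than cell types: 129 cells lay within 25% below the STRA8 limit and 90 within 25% above it, and the STRA8 values showed no gap there. For POU5F1 these numbers were 21 and 31, and for SYCE3 38 and 31. Of the germ cells, 18 passed more than 1 gate. POU5F1-high cells numbered 54, 121 and 208 by stage, in-between cells 362, 319 and 644, STRA8-positive cells 85, 57 and 188, and SYCE3-high cells 36, 39 and 73. Median UMIs per cell over all libraries were 51421, 49564, 43259.5 and 43816 in the same order of states. The barcodes that also occur in another library were unevenly spread over the states compared here: 1, 0 and 2 of the POU5F1-high cells by stage, 192, 38 and 212 of the in-between cells, 45, 8 and 69 of the STRA8-positive cells and 29, 12 and 61 of the SYCE3-high cells. Counts without these cells are given with each comparison, and the part of this sharing in the results was not tested otherwise. Shares of all genes are not given beside these counts, nor where a library is left out, so such counts describe the members alone.

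Markers that set no gate followed the states. The 9 other early oogonia markers, among them NANOG and SOX17, summed to 1659 to 1768 CPM in POU5F1-high cells and to 41.3 to 208 CPM in the STRA8-positive and SYCE3-high cells. The 14 other meiotic prophase markers summed to 117 to 139.6 CPM in POU5F1-high cells, 475 to 502 CPM in STRA8-positive cells and 2524 to 3082 CPM in SYCE3-high cells. The label early oogonia therefore covers cells of all these states here. The 10 germ cell markers summed to 941 to 2036 CPM in every state and library, against 37.7 to 58.9 CPM in barcodes under 2% mitochondrial UMIs with at least 1000 UMIs, called mouse barcodes here. Mouse barcodes were counted over the same 26017 features as the monkey cells. How well mouse reads fit each feature was not measured, so CPM in mouse barcodes are no exact measure of mouse levels gene by gene. The 8 oocyte markers summed to 7.05 to 14.4 CPM in POU5F1-high, 21.2 to 34.4 CPM in STRA8-positive and 32.0 to 53.8 CPM in SYCE3-high cells. Among them BMP15 had no UMI in any state of any library. Markers of other cell types were not even over the states. The 3 endothelial markers summed to 38.6 to 47.0 CPM in POU5F1-high cells and to 0.591 to 12.5 CPM in the other states. In mouse barcodes they summed to 3.55 to 9.91 CPM. The 2 mouse surface epithelium markers found summed to 17.8 to 28.2 CPM in POU5F1-high, 136 to 212 CPM in in-between, 159 to 248 CPM in STRA8-positive and 23.4 to 121 CPM in SYCE3-high cells. In mouse barcodes these epithelium markers summed to 48.6, 59.0 and 217 CPM by stage. In germ cells, immune and red blood cell markers stayed at 3.06 CPM or less. The part of other cell types in the results on members was not tested.

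Scaling decides how many members count as higher or lower, and it is therefore given before the comparisons. The 50 most abundant genes held 29.1 to 31.7% of the UMIs of POU5F1-high cells and 16.1 to 21.5% of those of the other states. The TMM factors of edgeR, which scale each sum to the bulk of its genes, were 0.699 to 0.782 for POU5F1-high cells and 1.03 to 1.17 for the others. Levels by state are given in TMM-scaled CPM, so that changes are relative to the bulk of genes. With plain UMI totals in place of TMM, the median change of all genes was shifted by 0.56 on the log2 scale between STRA8-positive and POU5F1-high cells, by 0.057 between SYCE3-high and STRA8-positive cells, and by 0.61 between SYCE3-high and POU5F1-high cells. Each change named below for a single member that passed the test keeps its direction on both scales unless it is said to flip.

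The ZNF genes formed a broad, low-level layer of the germ cell transcriptome with a few abundant members. The median member stood at 32.3 CPM in all germ cells together and the highest at 209 CPM, while 19 of the 367 ZNF symbols were under 1 CPM and 2 had no UMI. Of the members, 113 reached 20 CPM in each library. Counted in single libraries, 134, 114 and 131 ZNF symbols reached it by stage. The members just above the limit were ZNF267, ZNF276 and ZNF345 at 20.8, 20.4 and 20.2 CPM, and the symbols just below it were ZNF197, ZNF646 and ZNF552 at 19.9, 19.8 and 19.7 CPM. Since in-between cells held 61.9% of all germ cell UMIs, POU5F1-high cells 18.5%, STRA8-positive cells 13.2% and SYCE3-high cells 6.39%, the limit favours genes present in in-between cells. Without the in-between cells 7 members would have missed it (ZNF256, ZNF211, ZNF277, ZNF620, ZNF583, ZNF267 and ZNF276), and without the POU5F1-high cells 1, ZNF12. ZNF620, ZNF276 and ZNF345 would have missed it without the STRA8-positive cells, and ZNF276 and ZNF345 without the SYCE3-high cells. Differences of ZNF12, ZNF620, ZNF276 and ZNF345 between states were therefore partly fixed by the selection, and are given without a test where they are named, although the counts of members include them.

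The 5 most abundant members were ZNF428, ZNF706, ZNF207, ZNF638 and ZNF644. These are counts of transcript 3' ends, which do not grow with gene length but do depend on how the end of each gene is annotated. ZNF428 had 172, 232 and 219 CPM in all germ cells of the 3 libraries. ZNF706, a short zinc finger protein linked to the exit of mouse stem cells from pluripotency, had 195, 218 and 208 CPM. ZNF207, a spindle assembly and splicing factor, had 199.8, 166 and 193 CPM. ZNF428 was lowest in the first library, and of all members it was raised most in the E14.5 library against the E13.5 library (log2 ratio of CPM + 1 of 0.43). POU5F1-high cells, where ZNF428 was highest, made up 10.1% of the germ cells of E13.5 and 22.6% of those of E14.5. The part of this mix of states in the difference was not tested. ZNF638, a nuclear DNA-binding protein also linked to splicing, had 186, 159 and 186 CPM, and ZNF644, a partner of the H3 lysine 9 methyltransferase G9a, had 179, 161 and 166 CPM. Of the 5, ZNF207 and ZNF644 had nearly the same TMM-scaled level in POU5F1-high and STRA8-positive cells (191 ± 26.4 and 183 ± 7.04 for ZNF207, 162 ± 6.38 and 169 ± 2.89 for ZNF644, SD, n = 3 libraries), whereas ZNF428 was the member with the steepest descent among them. For ZNF207 the log2 change flipped from -0.071 with TMM to 0.49 on UMI totals, and for ZNF644 it was 0.062 and 0.62.

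The first comparison asked how ZNF levels differ between cells that still express POU5F1 and cells that express STRA8. Changes of the members formed 1 continuous spread around 0 on TMM-scaled levels, with some members far to either side. ZNF18 and ZNF428 led the lower set, beside ZNF12, whose difference was partly fixed by the selection. ZNF503, ZNF445 and ZNF703 led the higher one. By edgeR's quasi-likelihood test with Benjamini-Hochberg adjustment over 14670 genes at 0.05, 39 of 124 members were higher and 37 lower, and 48 did not pass. Of all genes tested, 35.6% were higher and 34.6% lower, and of the 7209 tested genes at 20 CPM or more, 31.7% were higher and 43.9% lower. The members' shares were 31.5% and 29.8%, with a median log2 change of 0.021 against -0.12 for the genes at 20 CPM or more. On plain UMI totals the same test called 86 members higher and 17 lower, so the split between higher and lower members rests on the scaling. Of the genes at 20 CPM or more, 60.8% were higher and 19.6% lower on that scale. The 39 and the 17 were called the same way on both scales. At 2-fold or more, 15 members were higher and 9 lower, against 10.7% and 13.6% of the genes at 20 CPM or more. Without the germ cells whose barcodes occur in another library, 35 members were higher and 37 lower.

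ZNF12, a KRAB zinc finger gene, stood at 75.2, 90.3 and 84.3 TMM-scaled CPM in POU5F1-high cells. It stood at 13.4, 10.8 and 13.9 in STRA8-positive cells. The log2 difference was -2.65, partly fixed by the selection, and the level was 14.1 ± 0.703 in in-between cells (SD, n = 3). ZNF18, which carries a SCAN and a KRAB domain, had the same shape, with 69.8, 85.1 and 83.2 in POU5F1-high cells and 15.9, 18.6 and 21.1 in STRA8-positive cells. Its log2 change was -2.08 (SE 0.11, edgeR adjusted p = 5.7e-12). Between STRA8-positive and SYCE3-high cells ZNF18 did not pass the test, with a log2 change of 0.0046 ± 0.15 (± SE), and ZNF12 differed by -0.007.

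ZNF428 fell in abundance by a larger absolute amount than any other named member, from 497, 628 and 538 TMM-scaled CPM in POU5F1-high cells to 127, 151 and 132 in STRA8-positive cells, with no overlap between the groups. The log2 change was -2.03 (SE 0.093, edgeR adjusted p = 7.5e-13). ZNF593, a nucleolar protein of the large ribosomal subunit's assembly line, had 325, 384 and 339 in POU5F1-high cells and 126, 144 and 138 in STRA8-positive cells. Its log2 change was -1.35 (SE 0.083, edgeR adjusted p = 5e-11), and again the groups did not overlap. ZNF830, a splicing-associated protein with a role in the DNA damage response, fell with a log2 change of -1.52 (SE 0.12, edgeR adjusted p = 1e-09), and ZNF581 with one of -1.51 (SE 0.11, edgeR adjusted p = 5.3e-10).

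**Figure D1:**
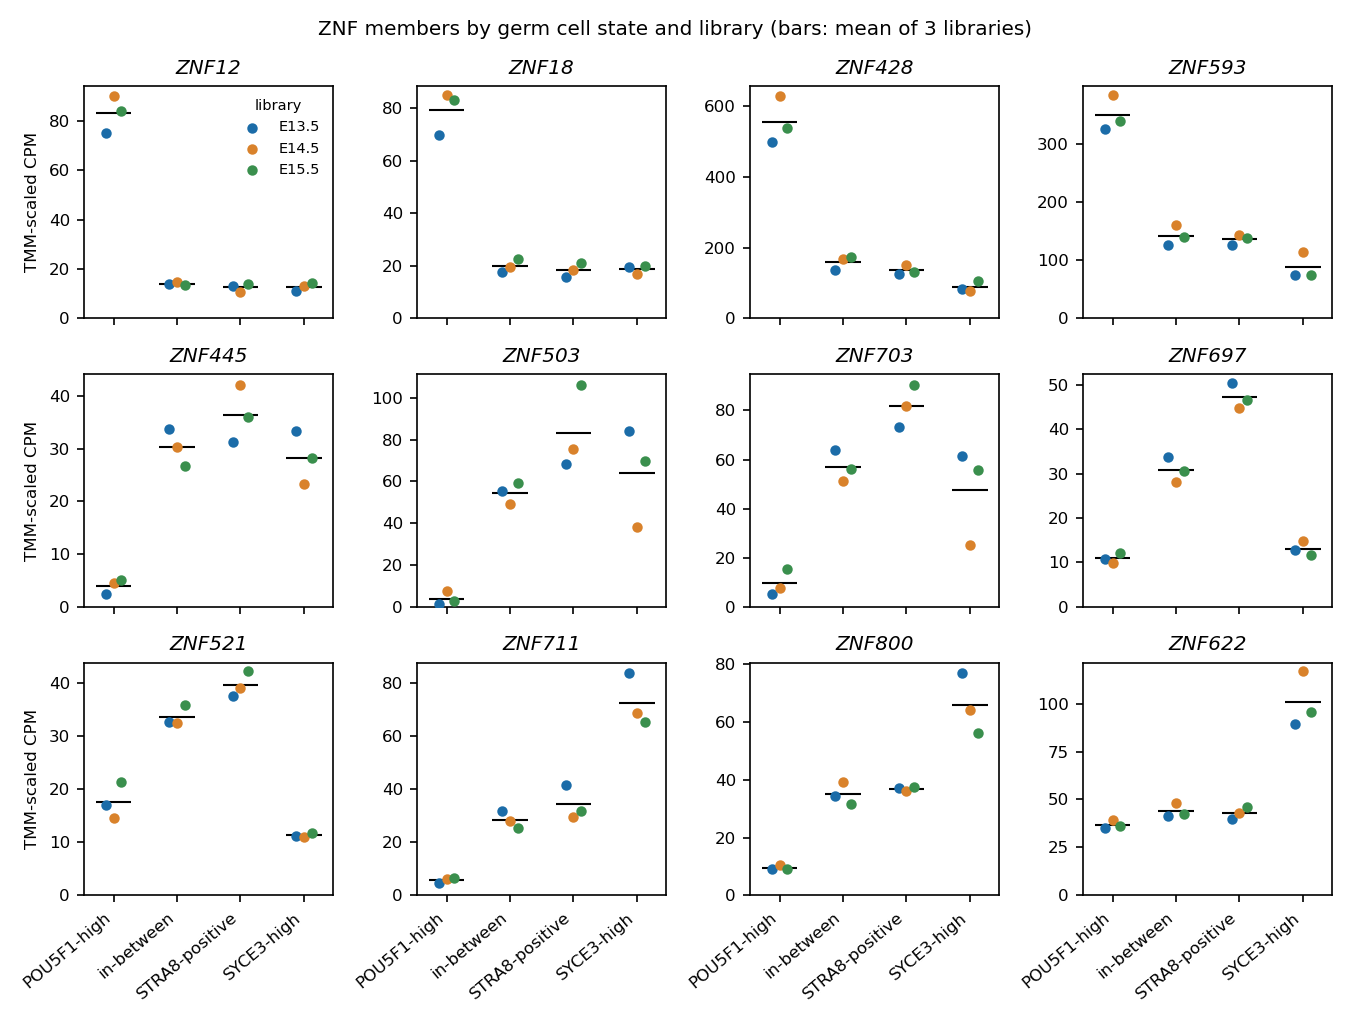
TMM-scaled CPM (vertical axis, linear from 0, scale differing by panel) of 12 ZNF members in the 4 germ cell states; points are single libraries and bars the mean of 3. ZNF12, ZNF18, ZNF428 and ZNF593 are highest in POU5F1-high cells, ZNF697 and ZNF521 in STRA8-positive cells, and ZNF711, ZNF800 and ZNF622 in SYCE3-high cells, on TMM-scaled and on plain levels alike.

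Among the members that rose, ZNF445 is a KRAB zinc finger gene that protects DNA methylation at imprinted loci. It had 2.53, 4.47 and 5.15 TMM-scaled CPM in POU5F1-high cells and 31.2, 42.1 and 35.9 in STRA8-positive cells. The lowest STRA8-positive value was several times the highest POU5F1-high value, and the log2 change was 2.99 (SE 0.21, edgeR adjusted p = 2.4e-10). The level was already 30.3 ± 3.48 in in-between cells (SD, n = 3). In mouse barcodes ZNF445 had 3.71, 4.26 and 3.02 CPM. ZFP57, the other zinc finger gene known for guarding imprints, had 0.362 CPM in all germ cells together and was under the limit for testing.

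ZNF503 and ZNF703 encode related transcriptional repressors of development. ZNF503 had 1.45, 7.76 and 2.81 TMM-scaled CPM in POU5F1-high cells, from 4, 33 and 24 UMIs, and 68.3, 75.4 and 106 in STRA8-positive cells, from 322, 174 and 1003 UMIs. This was the largest change among the members, at 4.43 on the log2 scale (SE 0.29, edgeR adjusted p = 1.4e-10). ZNF503 was also abundant in mouse barcodes, at 199, 208 and 256 CPM, and the 6 mouse stroma markers summed to 12.1 to 29.7 CPM in POU5F1-high cells, 70.5 to 132 CPM in STRA8-positive cells and 1646 to 2500 CPM in mouse barcodes. The part of mouse RNA in its change was not tested. ZNF703 had 5.42, 7.76 and 15.6 in POU5F1-high cells and 73.4, 81.9 and 90.4 in STRA8-positive cells, a log2 change of 2.90 (SE 0.22, edgeR adjusted p = 9.1e-10), with 15.6, 8.88 and 12.5 CPM in mouse barcodes.

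The other members named by the rule on this side were ZNF711, ZNF697 and ZNF620. ZNF711, an X-linked partner of the histone demethylase PHF8, had 4.70, 6.11 and 6.44 TMM-scaled CPM in POU5F1-high cells and 41.8, 29.5 and 32 in STRA8-positive cells. ZNF697 had 10.8, 9.87 and 12.2 and 50.3, 44.7 and 46.5 in the same order. Their log2 changes were 2.48 (SE 0.16, edgeR adjusted p = 6.6e-11) and 2.06 (SE 0.13, edgeR adjusted p = 7.1e-11), and in both genes all STRA8-positive values lay above all POU5F1-high values. ZNF620 stood at 6.76 ± 2.96 in POU5F1-high and 27.5 ± 6.10 in STRA8-positive cells (SD, n = 3), a log2 difference of 1.99. The rule's choice of 6 members left ZNF800, at 1.95 (SE 0.14, edgeR adjusted p = 6.2e-10), just outside this set.

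The second comparison set SYCE3-high cells, which express synaptonemal complex genes, against STRA8-positive cells. On both scales more members fell than rose. ZNF697, ZNF521 and ZNF597 fell most, while ZNF622, ZNF711 and ZNF574 rose most. Of 124 members, 26 were higher, 50 lower and 48 did not pass, at shares of 21.0% and 40.3%. Among all genes tested the shares were 26.2% and 25.9%, and among the genes at 20 CPM or more 26.9% and 35.7%. The median change of the members was -0.19 on the log2 scale, against -0.078 for the genes at 20 CPM or more. On UMI totals 28 members were higher and 45 lower, of which 26 and 45 were called the same way with TMM, against 30.1% and 32.4% of the genes at 20 CPM or more. At 2-fold or more, 2 members were higher and 10 lower, against 5.29% and 6.51% of those genes. Without the library E15.5, which holds 73 of the 148 SYCE3-high cells, 32 members were lower. Without the germ cells whose barcodes occur in another library, SYCE3-high cells remained in E14.5 alone (27 cells), and 10 members were higher and 21 lower.

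ZNF697 had a peak in the middle of the series: 33.6, 28 and 30.6 TMM-scaled CPM in in-between cells, 50.3, 44.7 and 46.5 in STRA8-positive cells and 12.7, 14.9 and 11.6 in SYCE3-high cells. The log2 change from STRA8-positive to SYCE3-high cells was -1.89 (SE 0.15, edgeR adjusted p = 5.9e-09), and its SYCE3-high and POU5F1-high values overlapped. ZNF521, a transcriptional cofactor known from blood and neural progenitors, had 37.5, 39 and 42.3 in STRA8-positive cells and 11.1, 11 and 11.8 in SYCE3-high cells. Its log2 change of -1.81 (SE 0.15, edgeR adjusted p = 1.3e-08) followed a higher level in STRA8-positive than in POU5F1-high cells (1.14, SE 0.12, edgeR adjusted p = 1e-07).

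ZNF597, an imprinted gene in human, had 34.8, 41.2 and 38.3 TMM-scaled CPM in STRA8-positive cells and 17, 12.1 and 16.2 in SYCE3-high cells, 2.46-fold lower (edgeR adjusted p = 1.4e-06). ZNF516, which binds the corepressor CtBP, had 40.2 ± 0.862 and 16.9 ± 1.46 (SD, n = 3), with a log2 change of -1.22 (SE 0.14, edgeR adjusted p = 6.3e-07). ZNF618, a partner of UHRF2, changed by -1.17 (SE 0.12, edgeR adjusted p = 1.5e-07), and it was abundant in mouse barcodes at 61.4, 60.0 and 75.5 CPM. In each of these genes every SYCE3-high value was below every STRA8-positive value. ZNF551 fell, with a log2 change of -1.13 (SE 0.17, edgeR adjusted p = 1.5e-05). Without the germ cells whose barcodes occur in another library its log2 change was -0.90, with an edgeR adjusted p of 0.085, the single named change that lost its call there.

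On the rising side, ZNF622, a cytoplasmic factor of large ribosomal subunit maturation, stood apart. It had 39.9, 42.9 and 45.9 TMM-scaled CPM in STRA8-positive cells and 89.1, 117 and 95.6 in SYCE3-high cells, a log2 change of 1.19 (SE 0.097, edgeR adjusted p = 1.1e-08). Its means in POU5F1-high, in-between and STRA8-positive cells were 36.9, 44 and 42.9, and it was already higher in STRA8-positive than in POU5F1-high cells (log2 change 0.25, SE 0.10, edgeR adjusted p = 0.036; 0.81 on UMI totals). ZNF593, of the same assembly pathway, moved the other way between these states, from 136 ± 9.29 to 88.2 ± 22.6 (SD, n = 3; log2 change -0.67, SE 0.096, edgeR adjusted p = 1.2e-05). ZNF473, which works in the processing of histone transcripts with the U7 small nuclear ribonucleoprotein, had 17.4, 19.1 and 22.4 in STRA8-positive cells and 33.9, 34.8 and 37 in SYCE3-high cells (log2 change 0.83, SE 0.13, edgeR adjusted p = 3.7e-05).

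ZNF711 rose a second time, to 83.8, 69 and 65.4 TMM-scaled CPM in SYCE3-high cells (log2 change 1.06, SE 0.12, edgeR adjusted p = 5.2e-07). ZNF655, whose product binds the signalling protein VAV1, had 36.7, 35.1 and 32.1 in STRA8-positive cells and 76.9, 70.7 and 48.3 in SYCE3-high cells, where E15.5 was the lowest library. ZNF664 and ZNF574 changed by 0.87 (SE 0.099, edgeR adjusted p = 8.2e-07) and 0.89 (SE 0.14, edgeR adjusted p = 4.3e-05). ZNF622 and ZNF664 also had 74.9, 83.5 and 95 and 47.7, 58.8 and 64.1 CPM in mouse barcodes, and the 9 mouse supporting cell markers summed to 44.1 to 73.1 CPM in STRA8-positive cells, 68.0 to 120.0 CPM in SYCE3-high cells and 2610 to 2989 CPM in mouse barcodes. The part of mouse RNA in these changes was not tested. ZNF473 had at most 1.03 CPM in mouse barcodes of any library.

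**Figure D2:**
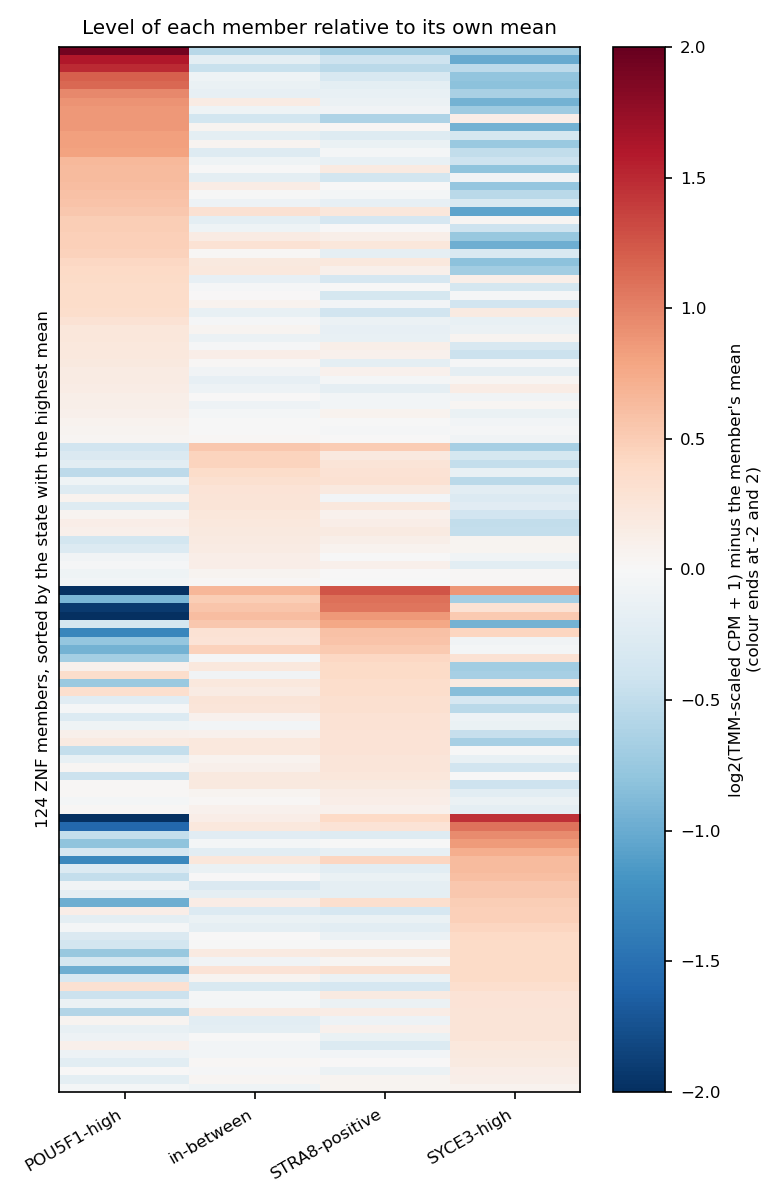
Heat map of the 124 members (rows, sorted by the state with the highest mean) in 4 germ cell states (columns); colour is log2(TMM-scaled CPM + 1) minus the member's own mean over states, with the mean of 3 libraries per cell and the scale ending at -2 and 2. POU5F1-high cells hold the highest mean of 47 members, in-between cells of 17, STRA8-positive cells of 27 and SYCE3-high cells of 33 on this scale, and the order of states within a member can change with plain UMI totals. Other genes were not counted in this way.

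The third comparison, SYCE3-high against POU5F1-high cells, shares its sums with the other comparisons and spans both. ZNF711 and ZNF800 were markedly higher and ZNF428, ZNF581, ZNF18, ZNF593 and ZNF263 markedly lower in SYCE3-high cells. Of 124 members, 38 were higher and 52 lower, at 30.6% and 41.9%, and 34 did not pass. Of all genes tested 38.2% were higher and 35.7% lower, and of the genes at 20 CPM or more 32.6% and 46.0%. The median of the members was -0.15 on the log2 scale and that of the genes at 20 CPM or more -0.17. On UMI totals 75 members were higher and 24 lower, and of the genes at 20 CPM or more 58.0% and 23.2%, so the majority turned around for members and for genes at large. At 2-fold or more with TMM, 15 were higher and 23 lower, against 13.9% and 20% of those genes. Without the germ cells whose barcodes occur in another library, 24 members were higher and 41 lower.

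ZNF711 had 4.70, 6.11 and 6.44 TMM-scaled CPM in POU5F1-high cells and 83.8, 69 and 65.4 in SYCE3-high cells, which was 11.7-fold higher (log2 change 3.54, SE 0.15, edgeR adjusted p = 1.6e-13). ZNF800, a repressor known from hormone-producing cells of the gut, had 9.04, 10.3 and 9.25 and 76.9, 64.1 and 56.2, a log2 change of 2.74 (SE 0.14, edgeR adjusted p = 3e-12). It was also present in mouse barcodes, at 54.6, 65.3 and 58 CPM. ZNF503 and ZNF445 remained high in SYCE3-high cells, at 84.3, 38.1 and 70.0 and 33.4, 23.2 and 28.2, and differed from POU5F1-high cells by 4.04 (SE 0.32, edgeR adjusted p = 1.2e-09) and 2.66 (SE 0.23, edgeR adjusted p = 4.3e-09). ZNF703 was higher by 2.14 (SE 0.25, edgeR adjusted p = 2.5e-07). ZNF276 had 6.69 ± 1.70 in POU5F1-high and 28.3 ± 6.35 in SYCE3-high cells (SD, n = 3), a log2 difference of 1.99.

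ZNF428 descended through all states to 84.3, 78.4 and 105 TMM-scaled CPM in SYCE3-high cells, 6.06-fold below POU5F1-high cells (log2 change -2.60, SE 0.10, edgeR adjusted p = 4.6e-14). ZNF593 had a log2 change of -2.02 (SE 0.093, edgeR adjusted p = 4.3e-13) and ZNF581 one of -2.10 (SE 0.13, edgeR adjusted p = 4e-11). ZNF18 had a log2 change of -2.08 (SE 0.12, edgeR adjusted p = 2.2e-11), and ZNF12 differed by -2.66. ZNF263, a SCAN and KRAB zinc finger gene, had 41.2, 41.6 and 50.5 in POU5F1-high cells and 7.95, 13.3 and 14.9 in SYCE3-high cells (log2 change -1.84, SE 0.15, edgeR adjusted p = 2.3e-09). In these genes other than ZNF12, whose difference was partly fixed by the selection, the SYCE3-high values lay below the POU5F1-high values of every library.

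**Figure D3:**
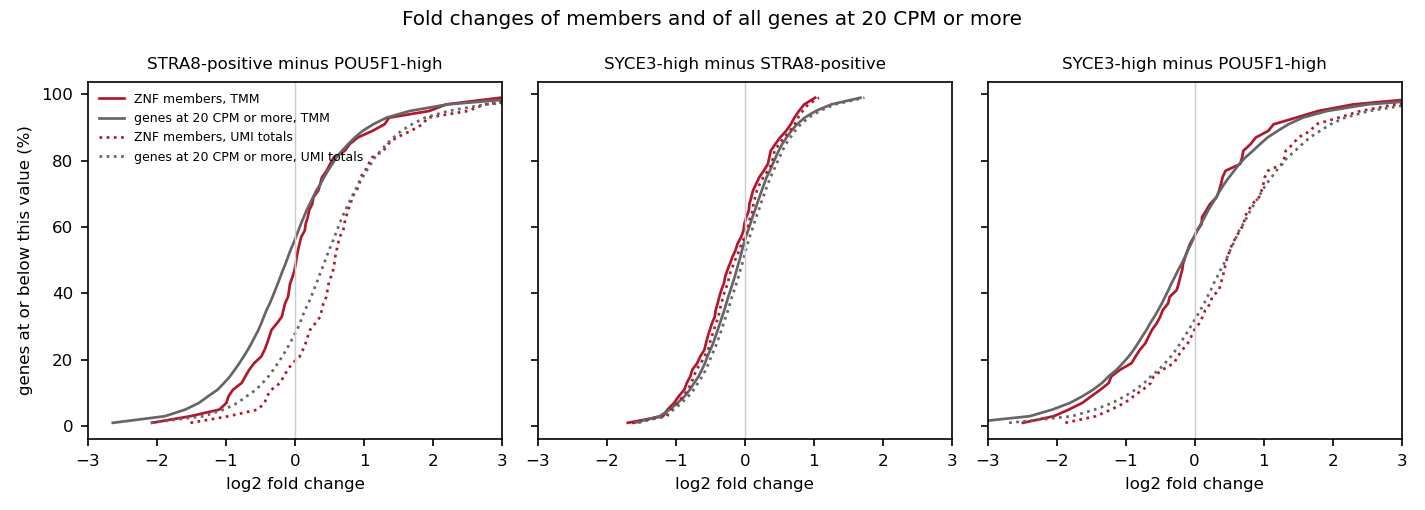
Cumulative share of genes (vertical axis, percent) by log2 fold change (horizontal axis) for the 124 members in red and the 7209 tested genes at 20 CPM or more in grey, in 3 comparisons of states, with TMM (solid) and with plain UMI totals (dotted). In the comparison of STRA8-positive with POU5F1-high cells the red curve lies to the right of the grey one in its lower part (medians 0.021 and -0.12 with TMM), and the dotted curves lie to the right in both comparisons with POU5F1-high cells, by 0.56 and 0.61 at the median of all genes.

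Taken by the state in which each member was highest in 3 of 3 libraries on both scales, 14 members peaked in POU5F1-high cells, 5 in in-between cells, 12 in STRA8-positive cells and 18 in SYCE3-high cells. With TMM alone the numbers were 32, 5, 12 and 18, and 57 members were highest in different states in different libraries. With UMI totals alone they were 14, 5, 20 and 29. The peaks of other genes were not counted, so these numbers cannot be set against genes at large. Examples given here outside the naming rule were picked after their values were seen. Besides genes already named, the POU5F1-high group held ZNF669, ZNF93, ZNF292, ZNF625, ZNF766, ZNF362, ZNF528 and ZNF549. ZNF669 had 214, 144 and 201 TMM-scaled CPM in POU5F1-high cells and a mean of 101 in SYCE3-high cells. ZNF93, which in human silences L1 retrotransposons, had 149, 150.2 and 118 in POU5F1-high cells and 68.4, 69.6 and 59.1 in SYCE3-high cells, with no overlap.

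The in-between group was ZNF148, ZNF331, ZNF414, ZNF511 and ZNF32, with shallow differences such as 93.6 ± 4.62 for ZNF331 in in-between and 55.8 ± 2.74 in POU5F1-high cells (SD, n = 3). The STRA8-positive group added ZNF281, ZNF704, ZNF177, ZNF195, ZNF862, ZNF135 and ZNF438 to ZNF638, ZNF703, ZNF521, ZNF697 and ZNF620. ZNF704 had 17.7, 19.7 and 30.4 in POU5F1-high cells, 64.9, 60.7 and 65.9 in STRA8-positive cells and 35.5, 45.3 and 48.6 in SYCE3-high cells. The SYCE3-high group added ZNF131, ZNF236, ZNF326, ZNF652, ZNF507, ZNF567, ZNF639, ZNF200, ZNF471, ZNF624 and ZNF569 to the genes described above. ZNF131 had 89 ± 5.05 in STRA8-positive cells and 149 ± 20.6 in SYCE3-high cells (SD, n = 3). ZNF326, of a complex that couples splicing to transcript elongation, had 67.2, 53.3 and 58.7 and 96.5, 113 and 90.8. In both of these genes all SYCE3-high values were above all STRA8-positive ones.

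With TMM, 15 members passed in none of the 3 comparisons: ZNF207, ZNF148, ZNF609, ZNF22, ZNF268, ZNF10, ZNF510, ZNF746, ZNF670, ZNF274, ZNF407, ZNF605, ZNF397, ZNF502 and ZNF267. Their log2 changes ran from -0.30 to 0.33 with TMM. This set rests on the scaling: on UMI totals 5 members passed in none, and 0 of 124 passed in none on both scales, by the same edgeR test. ZNF207 had 181, 171 and 221 TMM-scaled CPM in POU5F1-high cells, 184, 176 and 189.6 in STRA8-positive cells and 184, 162 and 181 in SYCE3-high cells, and the 3 ranges overlapped. ZNF274, which binds the 3' ends of other zinc finger genes with SETDB1, had 24.6, 20.5 and 26.2, 25.9, 23.4 and 24.5 and 24.9, 23.2 and 27.3 in the same order of states. The lack of a call does not show that these levels were equal. Other genes that passed in no comparison were not counted here, so the 15, 5 and 0 members cannot be set against genes at large.

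Summed over all 124 members, the level depended on the scale in its order. As CPM of UMI totals the members summed to 4962, 4534 and 5028 in POU5F1-high cells, and to 6355, 6119 and 6381 in STRA8-positive cells. In-between cells had 6257, 5772 and 6045, and SYCE3-high cells 6225, 5804 and 6192. On this scale POU5F1-high cells were lowest in every library. TMM-scaled, POU5F1-high cells were highest, at 6362, 6506 and 6632, and SYCE3-high cells lowest, at 5361, 5421 and 5306. No test was made, since the members were chosen by level.

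**Figure D4:**
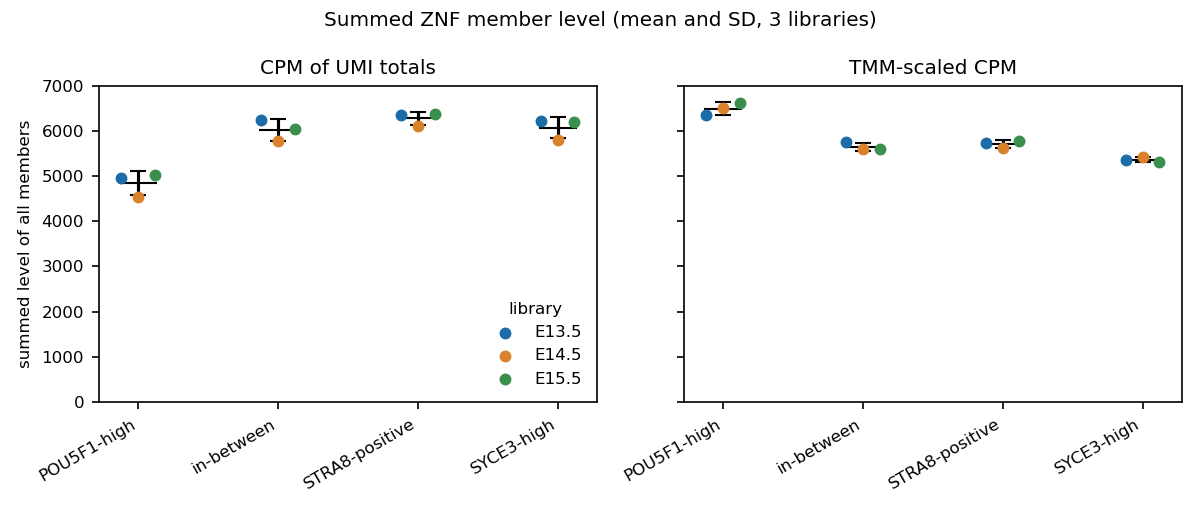
Summed level of the 124 members (vertical axis, from 0) in 4 germ cell states, as CPM of UMI totals on the left and TMM-scaled on the right; points are libraries, with the mean and SD of 3. POU5F1-high cells average 4841 on the left, below the other states, and 6500 on the right, above them.

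A list of 35 ZNF genes with a described cellular role held 28 members. Of these 28, 8 were higher and 10 lower in STRA8-positive than in POU5F1-high cells (19 and 4 on UMI totals), and 10 were higher and 9 lower in SYCE3-high than in STRA8-positive cells on both scales. Of the genes at 20 CPM or more, 31.7% and 43.9% were higher and lower in the first of these comparisons and 26.9% and 35.7% in the second. On UMI totals these shares were 60.8% and 19.6% in the first and 30.1% and 32.4% in the second. ZNF217, a repressor associated with CoREST, fell from 162 ± 16.3 TMM-scaled CPM in STRA8-positive cells to 87.7 ± 9.44 in SYCE3-high cells (SD, n = 3; log2 change -0.89, SE 0.083, edgeR adjusted p = 5.8e-08). ZNF462, a nuclear protein needed for chromatin organisation in embryonic cells, fell from 73.3 ± 8.37 to 35.1 ± 6.48 (log2 change -1.06, SE 0.11, edgeR adjusted p = 1.9e-07). ZNF398, linked to pluripotency in human stem cells, had 41.3 ± 1.91 in POU5F1-high, 26.3 ± 2.01 in STRA8-positive and 42.6 ± 4.46 in SYCE3-high cells, and the fall and the rise passed (edgeR adjusted p = 4.1e-05 and 0.00019). On plain CPM its means in these states were 30.8, 28.8 and 48.3. ZNF541, a meiotic gene of this list, was no member at 15.4 CPM in all germ cells, although it stood at 71.1 ± 19 in SYCE3-high and 9.18 ± 0.696 in STRA8-positive cells (log2 change 2.96, SE 0.17, edgeR adjusted p = 9.1e-11). It was chosen after its values were seen, as a late gene that the pooled limit leaves out.

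The partners through which KRAB zinc finger proteins act were counted next. Of 23 genes of the corepressor and H3 lysine 9 methylation list, 9 rose and 9 fell between POU5F1-high and STRA8-positive cells (15 and 3 on UMI totals), where 35.6% of all genes tested rose and 34.6% fell. Of the list only SUV39H1 was under 20 CPM, at 4.63 CPM. Among the genes at 20 CPM or more, 31.7% rose and 43.9% fell in that comparison (60.8% and 19.6% on UMI totals). Between STRA8-positive and SYCE3-high cells 10 rose and 6 fell on both scales, where 26.2% and 25.9% of all genes tested did. Among the genes at 20 CPM or more, 26.9% rose and 35.7% fell there (30.1% and 32.4% on UMI totals). TRIM28 had 426 ± 67.5 TMM-scaled CPM in POU5F1-high cells and 257 ± 39.5 in STRA8-positive cells (SD, n = 3; log2 change -0.74, SE 0.097, edgeR adjusted p = 1.8e-06; -0.17 on UMI totals). The heterochromatin protein gene CBX3 fell between STRA8-positive and SYCE3-high cells (log2 change -0.46, SE 0.066, edgeR adjusted p = 1.2e-05), and so did the deacetylase gene HDAC2 (-0.48, SE 0.066, edgeR adjusted p = 7.2e-06). RBBP4, a histone-binding subunit of several chromatin complexes, fell between POU5F1-high and STRA8-positive cells (log2 change -0.91, SE 0.069, edgeR adjusted p = 9.1e-10; -0.35 on UMI totals). These 4 genes were named as the most abundant of the list, are each shown where they fell, and do not stand for the list. Outside the naming rule, EHMT2 had the largest rise of the list between POU5F1-high and STRA8-positive cells (log2 change 2.14, SE 0.10, edgeR adjusted p = 9.6e-13). Between STRA8-positive and SYCE3-high cells the largest rise was that of DAXX (1.46, SE 0.12, edgeR adjusted p = 1.2e-08).

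Of the HUSH complex, which silences transposons with H3 lysine 9 methylation, 3 of 4 genes were found. The ATPase gene MORC2, which works with HUSH, had 23.2 ± 1.79 TMM-scaled CPM in STRA8-positive and 60.8 ± 7.41 in SYCE3-high cells (log2 change 1.40, SE 0.11, edgeR adjusted p = 1.1e-08). FAM208A, an older symbol of the HUSH subunit TASOR, rose in the same comparison by 0.39 (SE 0.095, edgeR adjusted p = 0.0021), and PPHLN1 did not pass (0.13, SE 0.092, edgeR adjusted p = 0.26). The maintenance methyltransferase DNMT1 was higher in STRA8-positive than in POU5F1-high cells, at 203 ± 7.70 against 85.5 ± 6.85 (log2 change 1.25, SE 0.088, edgeR adjusted p = 3.3e-10). Its cofactor UHRF1 was higher there too, at 32.4 ± 6.03 against 12 ± 0.883 (log2 change 1.45, SE 0.14, edgeR adjusted p = 3.6e-08). UHRF1 and the deubiquitinase gene USP7 were then lower in SYCE3-high cells, with log2 changes of -0.98 (SE 0.15, edgeR adjusted p = 2.8e-05) and -0.86 (SE 0.083, edgeR adjusted p = 9e-08). MKI67, TOP2A and CENPE, which mark dividing cells, summed to 528 to 611 CPM in POU5F1-high, 687 to 756 CPM in STRA8-positive and 836 to 1387 CPM in SYCE3-high cells, and their part in these changes was not tested.

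Many zinc finger genes lie side by side. In the RefSeq order of protein-coding genes of the cynomolgus assembly T2T-MFA8v1.1, used for order alone because no source used here names the build of the deposited files, 116 members were found. Of these, 47 had at least 3 zinc finger genes among the 10 nearest genes. Between STRA8-positive and SYCE3-high cells, 7 of the 47 rose and 21 fell, with a median log2 change of -0.27, and of the 69 others 19 rose and 24 fell, with a median of -0.057. Of the genes at 20 CPM or more, 26.9% rose and 35.7% fell. The difference between these sets of members was not tested. On UMI totals the counts were 8 and 19 for the 47 and 20 and 23 for the 69. The shares of the genes at 20 CPM or more were 30.1% and 32.4% on that scale. Between POU5F1-high and STRA8-positive cells, 12 of the 47 rose and 14 fell, and of the 69 others 25 rose and 17 fell (31 and 6, and 53 and 9, on UMI totals). In that comparison 31.7% of the genes at 20 CPM or more rose and 43.9% fell (60.8% and 19.6% on UMI totals).

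Only 9 pairs of members were immediate neighbours, and neighbours did not always move alike. Between STRA8-positive and SYCE3-high cells ZNF516 fell as given above, while its neighbour ZNF236 had 51.5, 57.2 and 72.1 and 95.5, 85 and 96 TMM-scaled CPM and rose (0.60, SE 0.10, edgeR adjusted p = 6.4e-05). ZNF8 fell in that comparison (-1.12, SE 0.18, edgeR adjusted p = 4.4e-05), whereas its neighbour ZNF544 did not pass (0.23, SE 0.15, edgeR adjusted p = 0.21). Zinc finger genes of a cluster can resemble each other closely in sequence, and reads that fit several of them may have been lost or misplaced in the authors' counting, which leaves the levels of clustered members less certain.

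Between libraries 1 member differed by 2-fold or more. Log2 ratios of CPM + 1 in all germ cells ran from -1.08 to 0.43 for E14.5 over E13.5, from -0.59 to 0.43 for E15.5 over E13.5 and from -0.35 to 0.86 for E15.5 over E14.5, with medians of -0.19, -0.079 and 0.10. The medians of all genes at 20 CPM or more in either library were -0.13, -0.042 and 0.063. With 1 library per stage there is no test. A ratio of 2-fold or more was found in 1 of 124 members for E14.5 over E13.5 and in none for the other pairs, against 0.498%, 0.238% and 0.324% of all genes at that level.

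The exception was ZNF544, a KRAB zinc finger gene. Its ratio fell short of 2-fold with TMM factors, with DESeq2 size factors, with a pseudocount of 5, and when 3 states were weighted equally. In all germ cells it had 32.9 CPM with mouse cells of E13.5 and 14.99 CPM with those of E14.5, where 95% exact Poisson intervals ran from 30.9 to 34.9 and from 13.495 to 16.6 and cover counting error only. With E15.5 it had 27.96 CPM, between 26.6 and 29.4. The E14.5 library was also the lowest within each state: 11.2, 8.23 and 13.9 TMM-scaled CPM in POU5F1-high cells, 32.2, 16.3 and 27.9 in in-between cells, 34.2, 23.4 and 29.7 in STRA8-positive cells and 37.7, 18.2 and 41.8 in SYCE3-high cells. As plain CPM + 1, E14.5 differed from E13.5 on the log2 scale by -0.53 in POU5F1-high, -1.01 in in-between, -0.55 in STRA8-positive and -1.12 in SYCE3-high cells. POU5F1-high cells made up 10.1% of the germ cells of E13.5 and 22.6% of those of E14.5, and ZNF544 was 2.46-fold higher in STRA8-positive than in POU5F1-high cells (edgeR adjusted p = 6.9e-07).

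**Figure D5:**
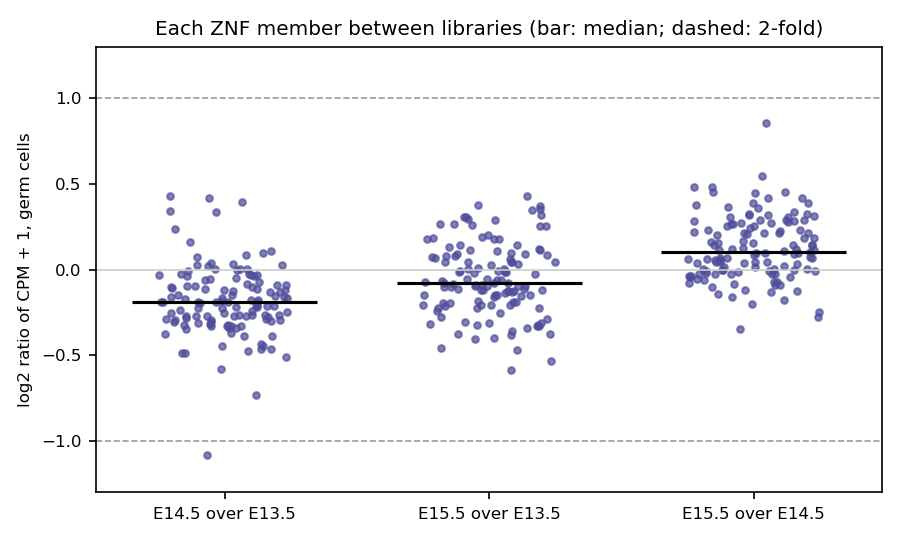
Log2 ratio of CPM + 1 between 2 libraries (vertical axis) for each of the 124 members in all germ cells, for 3 pairs of libraries; points are members, spread sideways for visibility, bars are medians and dashed lines mark 2-fold. ZNF544, at -1.08 in E14.5 over E13.5, is the single point past a dashed line.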

How the data were processed

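For each of 3 libraries the authors deposited a matrix of unnormalized UMI counts over called barcodes, written by Cell Ranger 6.0.1 per the file headers. Build and annotation: not given in the sources used here. No doublet caller was run, and leaving out the top 5% of cells by UMIs in each library served as an alternative.

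Counts were summed per library and state (12 sums, each of at least 20 cells) and tested with edgeR 4.0.16 (R 4.3.3) by filterByExpr, TMM and the quasi-likelihood test, blocked by library (6 residual degrees of freedom), adjusted over 14670 genes. POU5F1, STRA8 and SYCE3 were left out of the test. Each SE of an edgeR log2 change is the size of the change over the square root of the test's F statistic. It therefore restates the test and is no separate measure of the spread over libraries. The gates and the test used the same cells. State limits were read from the gate genes and markers before any ZNF value was computed. On simulated counts for STRA8-positive minus POU5F1-high cells (14182 genes), 75% of the changed genes were recovered at a log2 change of 1 and 94.8% at 2, with 5.20% false calls. The simulated states shared 1 set of gene proportions apart from the changed genes, and a fixed spread. They lacked the difference in scaling between POU5F1-high and other cells, so these rates need not hold for the data. Sums were made with Python 3.11.15, and DESeq2 1.42.0 and scanpy 1.11.5 served alternatives. For pairs of libraries, the log2 ratio of CPM + 1 was taken. In single libraries 3 counts stand for 0.0957, 0.123 and 0.0522 CPM.

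The members, lists and contrasts were chosen with earlier results of these data known. Named are the 6 members with the largest change in each direction of each contrast among those passing with 1 direction in 3 of 3 libraries, members past 2-fold between libraries, the 3 on each side of the level limit, the 5 most abundant, members with a described role, and up to 4 of the most abundant genes of other lists. Sequences are not used here. Of the comparison list of other zinc finger symbols (ZFP, ZBTB, ZKSCAN and ZSCAN), 21 of 80 reached 20 CPM. Of these 21, 7 rose and 10 fell between POU5F1-high and STRA8-positive cells (12 and 3 on UMI totals). Of the genes at 20 CPM or more, 31.7% rose and 43.9% fell there (60.8% and 19.6% on UMI totals). Between STRA8-positive and SYCE3-high cells 6 rose and 6 fell (7 and 5 on UMI totals), against 26.9% and 35.7% of those genes with TMM. On UMI totals the shares of those genes were 30.1% and 32.4%.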

Additional observations from a re-analysis of the deposited data

Results flagged for a closer look

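Between STRA8-positive and SYCE3-high cells, ZNF503 moved in opposite directions in different libraries. Its log2 difference was 0.306 in E13.5, -0.979 in E14.5 and -0.596 in E15.5. In E13.5 it had 322 UMIs in STRA8-positive and 159 in SYCE3-high cells. The difference between libraries was not tested, since each stage has 1 library. The pooled change did not pass, and ZNF503 was abundant in mouse barcodes, as given above.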

How the results depend on the processing

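All 36 named fold changes kept their direction under 16 alternatives (576 values). That of ZNF551 in SYCE3-high minus STRA8-positive cells was weaker (-0.8952) when germ barcodes found in another library were left out. The 36 were picked as the largest passing changes with 1 direction in 3 of 3 libraries of the same cells. Their stability was therefore largely fixed by that choice, and they include ZNF12, ZNF620 and ZNF276. Of all members called with TMM, some had the other sign on UMI totals. These were 13 of 76 for STRA8-positive minus POU5F1-high cells and 15 of 90 for SYCE3-high minus POU5F1-high cells. Counts of members moved more. Apart from UMI totals, shares of all genes under these settings are not given. A drop in called members can therefore not be read as particular to them. For STRA8-positive minus POU5F1-high cells, UMI totals gave 86 higher and 17 lower members. For SYCE3-high minus STRA8-positive cells, thinning each cell to 10000 UMIs gave 15 higher and 27 lower, leaving out the shared barcodes 10 and 21, doubled gates 33 lower, and leaving out a library 32 to 47 lower. For SYCE3-high minus POU5F1-high cells, UMI totals gave 75 higher and 24 lower, thinning 29 lower, and leaving out the shared barcodes 24 higher. UMI totals, the shared barcodes and TMM on the summed level were added after seeing the data. With shared barcodes left out SYCE3-high cells came from E14.5 alone and with doubled gates from E15.5 alone, where the lone sum is assumed to vary like the others. The Leiden clusters gave no SYCE3-high sum in E13.5. The count of members past 2-fold in E14.5 over E13.5 was 0 with equal weight to 3 states, TMM, DESeq2 size factors or a pseudocount of 5. At 10 CPM there were 217 members and at 40 CPM 40. Without the 5 highest members the summed level was 3833.5, 5095.5, 5324.5 and 5164.7 CPM in POU5F1-high, in-between, STRA8-positive and SYCE3-high cells, and with all 124 members TMM-scaled it was 6499.9, 5653.4, 5716.2 and 5362.8. The comparisons of states were paired by library, the replicate block of the test, and without the block 37, 24 and 31 members were higher and 35, 44 and 45 lower, so that 72, 68 and 76 were called, against 76, 76 and 90 with it. Stages could not be paired with each other, as each has 1 library. Depth limits the SYCE3-high sums most, with 36 to 73 cells a library.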
